A study of Saccharomyces cerevisiae with 11 samples.

Results

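Glycosylphosphatidylinositol (GPI) anchor synthesis was followed in budding yeast through 10 genes of the endoplasmic reticulum (ER) pathway, SPT14, GPI1, GPI2, GPI15, GPI19, GPI12, GWT1, GPI10, GPI13 and GAB1. They are 10 of the 5449 S. cerevisiae genes measured on the arrays, each read by a single probe set. The genes were picked by name with earlier results of these data known, and those results already showed GPI12 and SPT14 lower in the CFTR arrays. The CFTR against vector values of the 10 genes are therefore a description. No p-value is given for them, and where the text says which of them passed the threshold of a fit, this describes the values that chose the genes and supports nothing.

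The 4 CFTR samples were yeast carrying pRS426PPGK-CFTR-3HA, a plasmid that expresses the human chloride channel CFTR with an HA tag. The 7 vector samples carried pRSGPD426, whose name refers to the GPD promoter, while that of the CFTR plasmid refers to the PGK promoter. RNA from cultures in mid log phase, kept at 26 degrees under selection for the plasmid, was measured on Affymetrix arrays. No probe set was named for CFTR, so that its expression was not checked here. The labels do not tie arrays to separate cultures, and the spreads and p-values cover array-to-array differences, which may be technical. CFTR arrays bear sample codes 7 to 10, vector replicates 1 to 3 bear codes 3 to 5, and vector replicates 4 to 7 bear codes 11 to 14, so that a difference following the codes and an effect of CFTR cannot be told apart.

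The GPI anchor is a glycolipid that is built on phosphatidylinositol in the ER membrane and then attached to the carboxyl end of secreted proteins, which it holds at the plasma membrane or delivers to the cell wall. Synthesis starts on the cytosolic face, where a complex adds N-acetylglucosamine and the sugar is then deacetylated. The lipid is flipped, its inositol is acylated, mannoses and ethanolamine phosphates are added in turn, and a transamidase joins the finished anchor to protein. The pathway is essential for growth in yeast.

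Levels are log2 of the array value after each array was scaled to a mean of 1, so that a difference of 1 is a factor of 2 within a gene. Levels are compared between arrays for the same gene, not between genes. A limit of -1.17, the 95th percentile of probe sets that matched no S. cerevisiae gene, served as a background level. In these bulk cultures, fewer cells with a transcript and less of it per cell cannot be told apart.

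Vector replicates 1 and 2 stood apart from the other arrays over the whole array. Their medians over all probe sets were 0.267 to 0.272 on the linear scale, against 0.219 to 0.237 in the other 9 arrays, and their highest values were 12.4 to 13.7 against 16.6 to 19.5, a narrower range of signal. These replicates were both above all other 9 arrays in 2605 of 5449 genes (47.8%) and both below in 722 (13.3%). Their log2 values differed from each other with an SD of 0.11 across genes (median of all vector pairs 0.48). Vector replicates 5, 6 and 7 were about as close, with SDs of 0.10 (5 and 7), 0.12 (6 and 7) and 0.13 (5 and 6). Differences of the 10 members that rest on vector replicates 1 and 2 are given with and without these 2 arrays.

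SPT14 encodes the catalytic subunit of the N-acetylglucosaminyltransferase that starts anchor synthesis (GPI-GnT). Its levels were -1.56, -1.78, -1.60 and -1.71 in CFTR replicates 1 to 4. In vector replicates 1 to 7 they were -0.52, -0.48, -0.89, -0.995, -1.17, -1.10 and -1.18. All CFTR arrays lay below all vector arrays, and vector replicates 1 and 2 were the highest. The mean was -1.66 ± 0.10 in CFTR (SD, n = 4) and -0.91 ± 0.30 in vector arrays (SD, n = 7), a log2 difference of -0.76 (SE 0.15), or 1.69-fold lower in CFTR. Without vector replicates 1 and 2 it was -0.60 (SE 0.08). The 4 CFTR arrays and 1 vector array were under the background limit, so that the size of this difference is uncertain. Raising all values under the limit to the limit reduced it to -0.26.

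GPI12 encodes the de-N-acetylase that acts on the product of the GPI-GnT. Its CFTR levels were 0.10, 0.03, 0.04 and 0.01, the narrowest CFTR range of the 10 genes (0.094). The vector levels were 0.63, 0.67, 0.31, 0.79, 0.69, 0.60 and 0.68, all above the CFTR arrays. Vector replicate 3 was the lowest of them and lay nearest to the CFTR arrays. The mean was 0.05 ± 0.04 in CFTR (SD, n = 4) and 0.62 ± 0.15 in vector arrays (SD, n = 7), a log2 difference of -0.58 (SE 0.09), or 1.49-fold lower. All 11 arrays were above the background limit. Vector replicates 1 and 2 lay among vector replicates 4 to 7.

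SPT14 and GPI12 were the 2 members past the threshold of the fit over all genes (limma, adjusted p under 0.05), against 0.918% of all genes in either direction and 0.422% lower, and the only members whose groups did not overlap, against 3.34% of all genes wholly below. Since these values chose the members, nothing is read from the counts. GPI12 kept its negative difference in all 22 alternative fits, between -0.49 and -0.64, and passed the threshold in 14 of them. SPT14 kept its sign in all 21 fits that held it, between -0.26 and -1.03, and passed in 9. Neither passed when any one of the 4 CFTR arrays was left out, when vector replicate 5 or 7 was left out, when near-copy arrays were averaged, or against vector replicates 1 to 3 alone. SPT14 also failed without vector replicate 1, 4 or 6 and with the floor at the background limit.

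**Figure D1:**
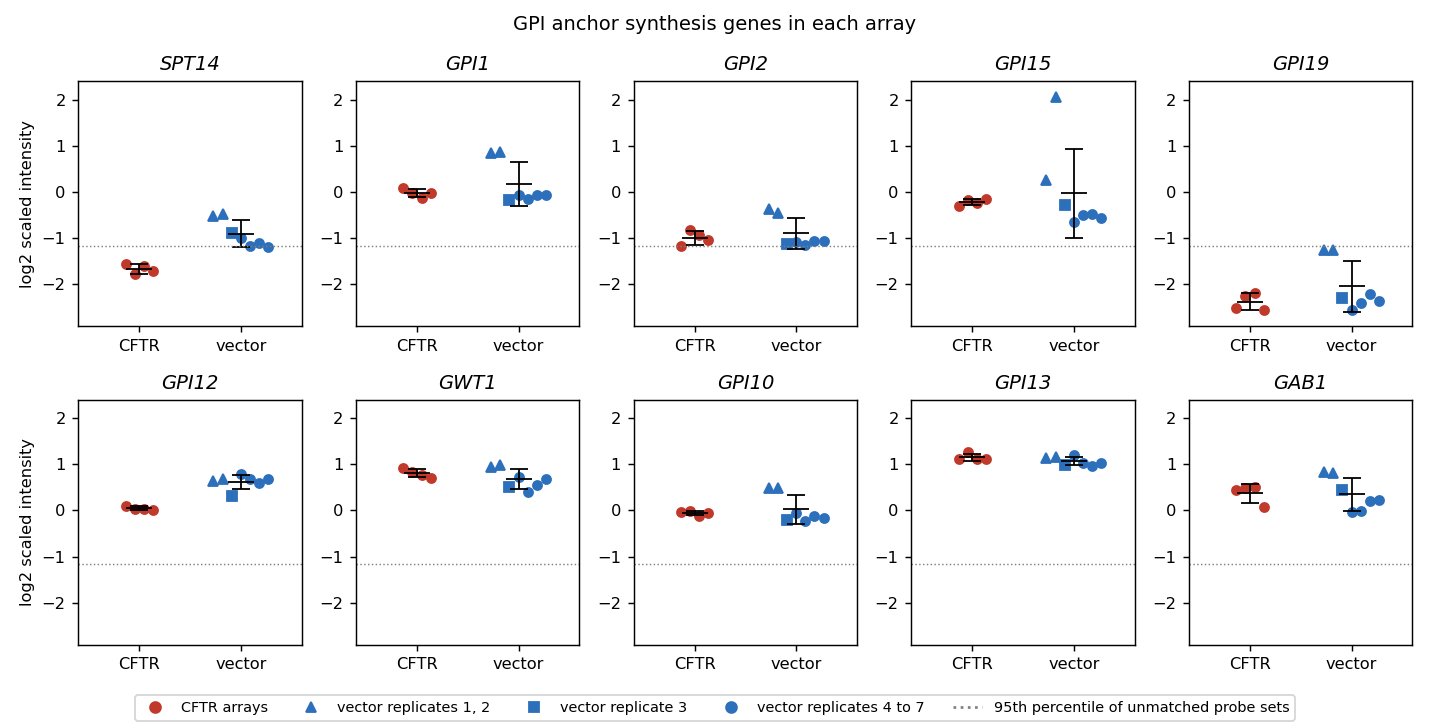
Log2 scaled intensity of the 10 genes in each array, with CFTR arrays left of vector arrays in each panel, black bars for mean and SD (n = 4 and 7) and a dotted line at the background limit of -1.17. SPT14 and GPI12 have all CFTR arrays below all vector arrays, while in SPT14, GPI1, GPI2, GPI15, GPI19, GWT1, GPI10 and GAB1 vector replicates 1 and 2 (triangles) lie above all other arrays.

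The other 4 GPI-GnT genes among the members did not have all CFTR arrays below all vector arrays as SPT14 did. As in SPT14, vector replicates 1 and 2 were above all other arrays in each of them. GPI1, a membrane subunit of the complex, had CFTR levels of 0.09, -0.02, -0.13 and -0.03. Its vector levels were 0.84, 0.87, -0.17, -0.06, -0.16, -0.06 and -0.07. Vector replicates 1 and 2 stood far above, and the other 5 vector arrays overlapped the CFTR arrays. The log2 difference was -0.19 (SE 0.22) with all vector arrays and 0.08 (SE 0.06) without replicates 1 and 2. GPI2, another membrane subunit, had CFTR levels of -1.17, -0.82, -0.93 and -1.04. In vector replicates 1 and 2 it stood at -0.37 and -0.45, and in replicates 3 to 7 at -1.12, -1.08, -1.14, -1.07 and -1.05. Without replicates 1 and 2 its difference turned to 0.10 (SE 0.07), against -0.09 (SE 0.17) with them. GPI19, a small subunit, was under the background limit in all 11 arrays, at -2.56 to -2.19 in CFTR arrays, -1.26 and -1.25 in vector replicates 1 and 2, and -2.55 to -2.21 in vector replicates 3 to 7. Its differences of -0.33 (SE 0.26), or -0.02 (SE 0.09) without replicates 1 and 2, have no firm size.

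GPI15, a further subunit of the GPI-GnT, had the widest spread of the 10 genes. Its CFTR levels were -0.31, -0.18, -0.23 and -0.16. Its vector levels were 0.25, 2.05, -0.28, -0.66, -0.51, -0.48 and -0.57. Vector replicate 2 stood 1.79 above vector replicate 1, although these arrays were near copies over all genes, and only 1 of the 5449 genes differed more between them. The other 9 members differed by -0.07 to 0.04 between the same arrays. With all vector arrays the log2 difference was -0.19 (SE 0.43). Without vector replicate 2 it was 0.15, and without both replicates 0.28 (SE 0.08). Against vector replicates 4 to 7 alone it was 0.33 (SE 0.06), where all 4 CFTR arrays lay above, as did 25.9% of all genes, and vector replicate 3 stood at the CFTR level.

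**Figure D2:**
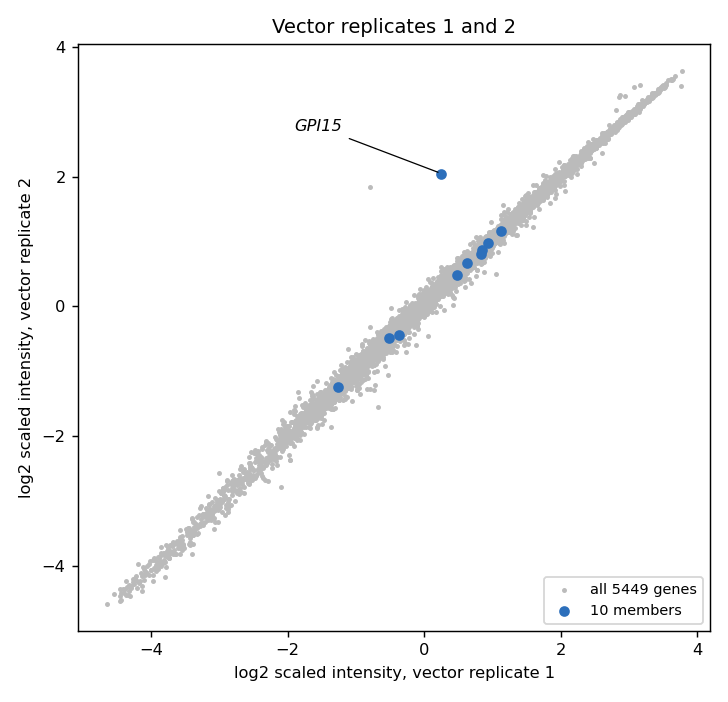
Log2 scaled intensity of all 5449 genes in vector replicate 1 (x axis) and vector replicate 2 (y axis), with the 10 members in blue. GPI15 lies 1.79 above the diagonal, while the other 9 members lie within 0.08 of it.

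The enzymes that act later in the ER differed little between the groups. GWT1, which acylates the inositol, had CFTR levels of 0.91, 0.84, 0.77 and 0.70. Its vector levels were 0.94, 0.98, 0.50, 0.73, 0.41, 0.56 and 0.67. The groups overlapped, with vector replicates 1 and 2 highest and the other vector arrays mostly below the CFTR arrays. The difference was 0.12 (SE 0.11), or 0.23 (SE 0.08) without replicates 1 and 2. GPI10, the mannosyltransferase that adds the third mannose, had CFTR levels of -0.03, -0.02, -0.12 and -0.05. In the vector arrays it had 0.48, 0.49, -0.20, -0.05, -0.23, -0.11 and -0.17. As in GPI1, the vector arrays were split, and the difference was -0.09 (SE 0.15) with all of them and 0.09 (SE 0.06) without replicates 1 and 2.

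GPI13 adds ethanolamine phosphate to the third mannose, the group through which the anchor is linked to protein. Its CFTR levels were 1.11, 1.26, 1.11 and 1.12. The vector levels were 1.13, 1.16, 0.98, 1.20, 1.02, 0.97 and 1.02, the narrowest vector range of the 10 genes (0.233). Vector replicates 1 and 2 lay within the range of the other arrays, and the difference was 0.08 (SE 0.07). GAB1, a subunit of the transamidase, had CFTR levels of 0.44, 0.48, 0.50 and 0.07, with replicate 4 apart. Its vector levels were 0.84, 0.81, 0.45, -0.03, -0.00, 0.19 and 0.22. Vector replicates 1 and 2 lay above all CFTR arrays, vector replicate 3 lay among them, and vector replicates 4 to 7 lay below CFTR replicates 1 to 3. The difference of 0.02 (SE 0.18) was -0.32 (SE 0.14) against vector replicates 1 to 3 and 0.28 (SE 0.11) against replicates 4 to 7, and 0.21 (SE 0.12) without replicates 1 and 2.

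The choice of vector arrays set the sign of 7 of the 10 genes. For 2 of these the value of the other sign was near 0, GPI19 (0.001 against vector replicates 4 to 7) and GWT1 (-0.001 against replicates 1 to 3). Against vector replicates 4 to 7 alone, 8 members were higher and 2 lower in CFTR, with a median of 0.09 (all genes 0.04). When vector replicates 1 to 3 were the only controls, 1 member was higher and 9 lower, with a median of -0.42 (all genes -0.15). With all 7 vector arrays 3 were higher and 7 lower, with a median of -0.14, beside -0.04 for all genes. SPT14 and GPI12 were lower and GPI13 higher with each of the 3 sets. The CFTR arrays are shared by these comparisons. The fit called 3 members against vector replicates 4 to 7 (SPT14, GPI12 and GPI15, beside 43.9% of all genes), 0 against replicates 1 to 3 (0.0184% of all genes) and the same 3 without replicates 1 and 2 (18.4% of all genes). For SPT14 the difference was -1.03 (SE 0.13) against vector replicates 1 to 3 and -0.55 (SE 0.06) against replicates 4 to 7. For GPI12 it was -0.49 (SE 0.10) and -0.64 (SE 0.05), the smaller size coming with the set that holds vector replicate 3.

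**Figure D3:**
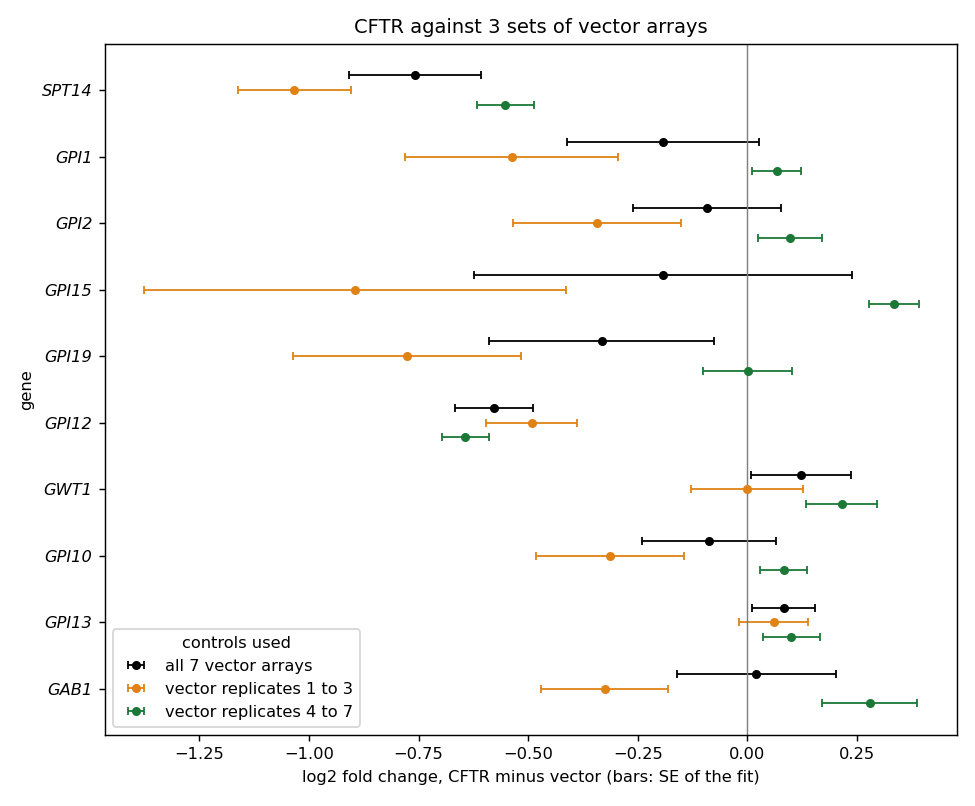
Log2 fold change of the CFTR arrays minus 3 sets of vector arrays (x axis, bars are the SE of the fit) for each of the 10 genes (y axis). SPT14 and GPI12 lie below 0 with each set, GPI13 lies at 0.06 to 0.10, and the other 7 genes have values on both sides of 0. Of these, GPI19 (0.001) and GWT1 (-0.001) barely cross 0.

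A contrast that the choice of genes did not use is that between the vector arrays themselves, codes 11 to 14 (replicates 4 to 7) against codes 3 to 5 (replicates 1 to 3). It is not wholly independent of that choice, since the same vector arrays were the controls when GPI12 and SPT14 were seen to be lower. GAB1 averaged 0.09 ± 0.13 in the 4 arrays of codes 11 to 14 and 0.70 ± 0.22 in the 3 arrays of codes 3 to 5 (SD), a log2 difference of -0.60 (SE 0.13; limma adjusted p = 0.019). SPT14 averaged -1.11 ± 0.09 in codes 11 to 14 and -0.63 ± 0.23 in codes 3 to 5, a difference of -0.48 (SE 0.13, limma adjusted p = 0.033). These 2 of 10 members fell, where 27.1% of all genes passed in either direction and 20.3% fell. As deposited, GPI12 did not pass, with 0.69 ± 0.08 in codes 11 to 14 and 0.54 ± 0.20 in codes 3 to 5 (difference 0.15, SE 0.11, limma adjusted p = 0.29). It did pass, as higher in codes 11 to 14, after quantile normalization (0.35, SE 0.07, limma adjusted p = 0.015) and after median centring (0.40, SE 0.07, limma adjusted p = 0.013). In these fits SPT14 (-0.21 and -0.24) and GAB1 (-0.41 and -0.36) remained lower, by less than as deposited. GPI15 had a difference of -1.23 but an SE of 0.48. The groups did not overlap in SPT14, GPI15 and GAB1, all lower in codes 11 to 14, beside 27.8% of all genes. As deposited no member rose, beside 6.83% of all genes. In all, 9 of 10 members had a negative difference and their median was -0.46, beside -0.19 for all genes. After median centring the median of all genes was 0.06, 7 members were negative and their median was -0.22. The calls depended on which arrays were in the fit. Leaving out single arrays, GAB1 stayed between -0.73 and -0.53 and SPT14 between -0.61 and -0.41. Leaving out vector replicate 1 or 2 keeps its near copy, so these ranges do not show how far the differences rest on both. Vector replicate 3 stood at -0.89 in SPT14 and 0.45 in GAB1, nearer to the means of codes 11 to 14 than vector replicates 1 and 2 were. Without vector replicate 1, 2, 5 or 7, or with the near copies averaged, no member passed. Without vector replicate 3 there were 8 of 10, beside 3866 of all 5449 genes.

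Vector replicates 1 and 2 were both above the other 9 arrays in 8 of the 10 members, the exceptions being GPI12 and GPI13, where 47.8% of all genes had this order. After quantile normalization, which gives every array the same distribution of values, 5 members kept it, namely GPI1, GPI2, GPI15, GPI19 and GPI10, beside 27% of all genes.

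Of 14 other genes of anchor assembly, none passed in the comparison of CFTR with vector (limma, 0.918% of all genes called). At an unadjusted p under 0.05 there were 2 of 14, beside 18.2% of all genes. These were ERI1, a further GPI-GnT subunit (log2 difference 0.16, SE 0.07), and PGA1, a partner of the mannosyltransferase GPI18 (-0.42, SE 0.18). PGA1 had levels of -1.33, -0.99, -1.03 and -1.04 in CFTR arrays and -0.25, -0.23, -1.18, -0.86, -0.81, -0.56 and -0.88 in vector arrays, so that vector replicate 3 lay among the CFTR arrays. Its difference without vector replicates 1 and 2 was -0.24 (SE 0.12). The median of the 14 was 0.01, beside -0.04 for all genes, with 7 above 0 and 7 below. The transamidase subunits GPI8, GPI16, GPI17 and GAA1 had differences of -0.02, -0.07, -0.14 and 0.10, of which GPI8 and GPI16 turned positive after median centring (0.05 and 0.00), and GAA1 turned negative against vector replicates 1 to 3 alone. Without vector replicates 1 and 2, GPI17 was at 0.01 and GAA1 at 0.30 (SE 0.10). MCD4 and LAS21, the other ethanolamine phosphate transferases, had 0.12 (SE 0.13) and 0.12 (SE 0.11), and GPI11, which works with GPI13 and LAS21, had 0.12 (SE 0.13). GPI14, the first mannosyltransferase, had 0.04 (SE 0.10) and its partner PBN1 -0.07 (SE 0.07). GPI18 and SMP3, mannosyltransferases of later steps, had -0.23 (SE 0.24) and -0.19 (SE 0.25), with both vector replicates 1 and 2 above all other arrays. Without these replicates both differences were positive, 0.07 (SE 0.08) for GPI18 and 0.13 (SE 0.05) for SMP3. ARV1, which aids anchor synthesis in the ER, had 0.09 (SE 0.19), with 7 of 11 arrays under the background limit. Without vector replicates 1 and 2, ARV1 (0.31, SE 0.09, adjusted p = 0.036) and LAS21 (0.24, SE 0.06, adjusted p = 0.030) rose (limma), 2 of 14 genes beside 18.4% of all genes.

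Against vector replicates 4 to 7 alone, GAA1 (0.39, SE 0.05), ARV1 (0.36), GPI11 (0.30) and LAS21 (0.27) rose and PGA1 fell by 0.32, 5 of 14 genes where 43.9% of all genes were called. Between the vector arrays, MCD4 was higher in codes 11 to 14 (0.39, SE 0.12, limma adjusted p = 0.043), and GPI18, GAA1, ARV1, GPI11 and LAS21 were lower by 0.35 to 0.75, 6 of 14 genes beside 27.1% of all genes. MCD4, GAA1 and ARV1 passed in the same direction under both quantile normalization and median centring, while GPI18, GPI11 and LAS21 passed in neither.

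**Figure D4:**
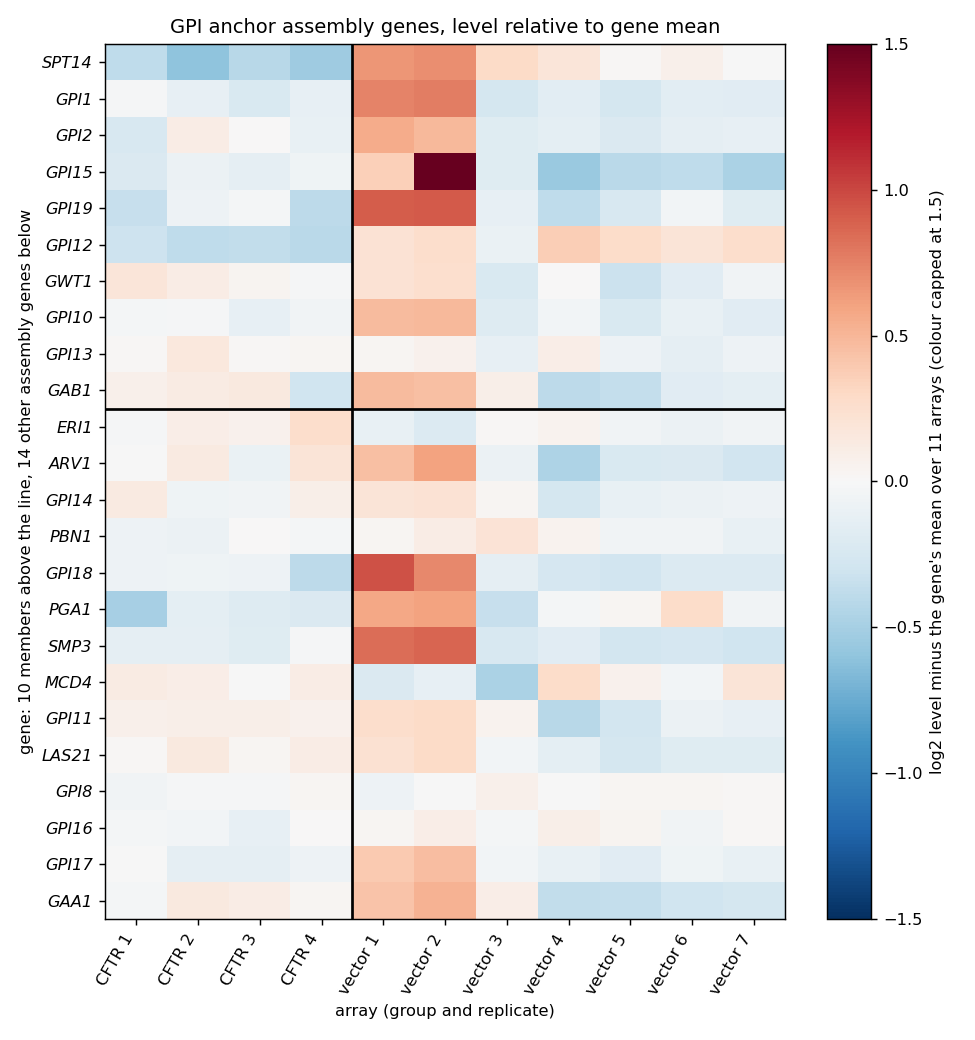
Log2 level minus the gene's mean over 11 arrays, as colour, for the 10 members and 14 other assembly genes (rows) in the 4 CFTR and 7 vector arrays (columns). The CFTR columns are low in SPT14 and GPI12, and 8 members and 9 other rows are above all other arrays in both vector replicates 1 and 2, with vector replicate 2 highest in GPI15.

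Genes that act around anchor assembly were examined as well. None passed among 10 genes of anchor remodelling and export (median 0.06), 14 genes that supply sugar and dolichol donors (median 0.08) or 36 genes of GPI-anchored surface proteins (median 0.03). Together with the 14 assembly genes, 0 of 74 were called with all 11 arrays, and 13 (17.6%) had an unadjusted p under 0.05, beside 18.2% of all genes. The smallest p of the 74 was that of GNA1, an acetyltransferase of UDP-N-acetylglucosamine synthesis. Its levels were 0.31, 0.29, 0.24 and 0.42 in CFTR arrays, all above the vector levels of 0.07, 0.09, 0.11, -0.29, -0.14, -0.15 and -0.14. The difference was 0.38 (SE 0.10, limma adjusted p = 0.083), and GNA1 rose without vector replicate 3 (0.41, adjusted p = 0.021), after quantile normalization (0.46, adjusted p = 0.030) and after median centring (0.45, adjusted p = 0.029). DPM1, the dolichol phosphate mannose synthase that feeds all anchor mannoses, had 0.22 (SE 0.08, adjusted p = 0.18), and no vector array reached the CFTR arrays. PMI40, of mannose phosphate synthesis, likewise did not overlap (0.19, SE 0.07, adjusted p = 0.16). These were 3 of the 14 donor genes, while 131 of all 5449 genes lay wholly above, and nothing is read from this order. GFA1, which makes glucosamine phosphate at the start of the UDP-N-acetylglucosamine pathway that also holds GNA1, had a difference of the other sign (-0.22, SE 0.10, adjusted p = 0.26), or -0.14 without vector replicates 1 and 2. SEC59, the dolichol kinase, passed after quantile normalization and median centring (0.27 in both) but not as deposited (0.20, SE 0.13). In those rescaled fits 200 and 173 of all 5449 genes passed. SEC59 had -0.004 (SE 0.13) against vector replicates 1 to 3 alone and 0.35 (SE 0.06) against replicates 4 to 7. CDC1, an ethanolamine phosphate remodelling enzyme, had -0.17 (SE 0.07, adjusted p = 0.26), and the cargo adaptors EMP24, ERV25 and ERP1 had 0.14, 0.13 and 0.10. Without vector replicates 1 and 2, 15 of the 74 genes passed (20.3%, beside 18.4% of all genes), among them GNA1 (0.44), SEC59 (0.34) and DPM1 (0.14).

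Among GPI-anchored surface proteins, CRH1, a cell wall transglycosylase, had -0.34 (SE 0.10, limma adjusted p = 0.12), with CFTR levels of 1.99 to 2.20 against vector levels of 2.25 to 2.87. In all, 3 of the 36 genes lay wholly below, beside 3.34% of all genes. DFG5, a putative mannosidase of the cell wall, had -0.27 (SE 0.09, adjusted p = 0.15) and CWP1, a wall mannoprotein, -0.35 (SE 0.13, adjusted p = 0.18). TIR3, a wall mannoprotein of the cold and anaerobic family, had 0.94 (SE 0.33, adjusted p = 0.16). Without vector replicate 3, whose TIR3 level of 0.73 was above all CFTR arrays, TIR3 rose by 1.17 (adjusted p = 0.010), TIR1 by 0.86 and GNA1 by 0.41, and CRH1 fell by 0.38, 4 of 74 genes beside 9.56% of all genes. The most abundant of these wall proteins in yeast, such as CCW12 and SED1, had 0.04 (SE 0.14) and -0.04 (SE 0.15). Without vector replicates 1 and 2 they had -0.13 (SE 0.04) and -0.22 (SE 0.06), of which SED1 passed (limma adjusted p = 0.040), as did CRH1 (-0.38, adjusted p = 0.045). In that fit 18.4% of all genes passed. Against vector replicates 1 to 3 alone CCW12 and SED1 had the other sign, 0.30 (SE 0.13) and 0.26 (SE 0.11), and neither passed.

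**Figure D5:**
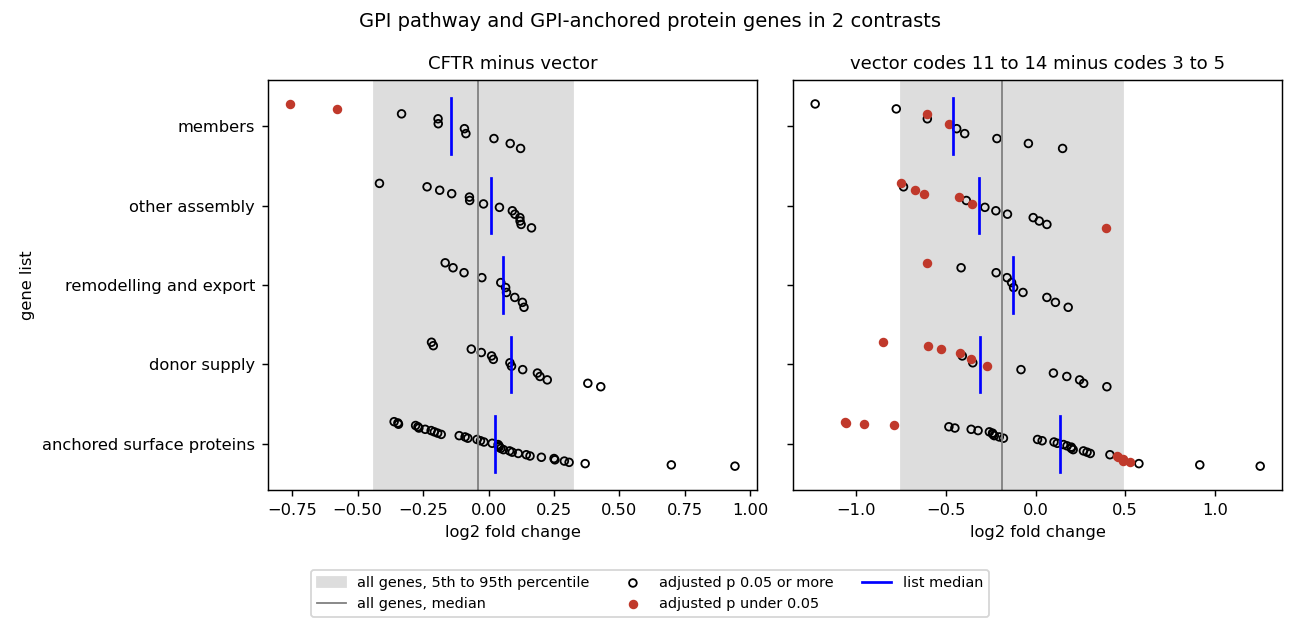
Log2 fold change of each gene (x axis) by gene list (y axis) for CFTR minus vector (left) and vector codes 11 to 14 minus codes 3 to 5 (right), with blue lines at list medians and the grey band and line giving all genes. On the left 2 members and 0 of 74 other genes passed, and on the right 2 members and 23 other genes.

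The genes whose levels followed GPI12 most closely over the 11 arrays, among 4110 genes above the background limit, were MCM7, RGL1, PGS1 and TTI2, with Pearson r of 0.98, 0.98, 0.98 and 0.97. For SPT14 they were HOG1, CPR8, BIG1 and CIN2, with r of 0.96, 0.95, 0.95 and 0.95. These are descriptions over 11 arrays that share the group difference and the shift of vector replicates 1 and 2. No gene was on both lists, and RGL1 and PGS1 were themselves among the 50 genes called.

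The neighbours of GPI12 and SPT14 in gene order did not pass. CAT8 and AEP2, on either side of GPI12, had -0.22 (SE 0.19) and -0.42 (SE 0.23). TRE1 and NIP100, on either side of SPT14, had -0.12 (SE 0.10) and -0.19 (SE 0.14). Without vector replicates 1 and 2, AEP2, TRE1 and NIP100 had -0.15, -0.04 and -0.02. CAT8 and NIP100 were under the background limit in all 11 arrays, and TRE1 was above it in all. AEP2 was under it in all 4 CFTR arrays and 5 of 7 vector arrays, so that the size of its difference is uncertain.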

How the data were processed

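Total RNA was extracted with hot phenol and column cleanup and labelled with a 3' IVT kit, per the labels' protocols. The deposited table holds 1 linear intensity for each of 10715 probe sets and array. The mean of each array was 1, which shows a scaling to the array mean by the authors, and values are thus relative within an array. Their software and background correction were not given in the sources used here. The number of arrays limits the precision.

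Names came from the platform's annotation, updated through a RefSeq gene table of assembly R64, which also gave gene order. Of the probe sets, 5498 matched 1 gene, and the brightest per gene over 11 arrays gave 5449 genes. Values were log2-transformed with no floor or filter, so that all 10 members were tested, and 8 of them passed the alternative filter on dim genes. Comparisons used limma 3.58.1 under R 4.3.3 (eBayes with an intensity trend, Benjamini-Hochberg over all genes, threshold 0.05), tested on simulated data. Vector arrays keep the replicate numbers of their titles, while CFTR arrays were numbered in deposition order, as names only. The labels mark the vector arrays as a re-analysis.

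The members and all lists were chosen with earlier results of these data known. Named were all members, every other assembly gene, members of the other lists past the threshold or with the 4 smallest p, the neighbours of GPI12 and SPT14, and the 4 genes most correlated with each. SEC59, TIR1, SED1 and CCW12 were named in CFTR against vector after their values were seen. The alternatives tried were median centring, quantile normalization, robust moderation, a fit with no trend, a filter and a floor at -1.17, the mean of probe sets, averaging near copies (vector replicates 1 and 2, 5 and 7), subsets of the vector arrays, and leaving out each array. Leaving out vector replicates 1 and 2 together was added after seeing the data. Plots were made in matplotlib 3.10.9 (Python 3.11.15).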

Additional observations from a re-analysis of the deposited data

Results flagged for a closer look

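A sample far from the rest of its group was looked for in 57 genes, in each of the 2 groups. By chance about 1 in 20 groups shows such a gap, and over all genes 5.3% did in the CFTR arrays and 5.62% in the vector arrays.

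In the vector group, GPI12 in replicate 3 was the lowest of 7, at 0.309 where the nearest was 0.603, and GPI15 in replicate 2 was the highest, at 2.049 where the nearest was 0.254. CRH1 was highest in vector replicate 4, at 2.866 where the nearest was 2.506.

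In the CFTR group, replicate 4 was lowest for GAB1, at 0.066 where the nearest was 0.441, lowest for GPI18, at 0.569 where the nearest was 0.883, and highest for CCW14, a wall protein, at 3.317 where the nearest was 3.228. GPI13 was highest in CFTR replicate 2, at 1.258 where the nearest was 1.123. MCD4 was lowest in CFTR replicate 3, at 1.132 where the nearest was 1.239. TIR3 was lowest in CFTR replicate 1, at -0.197 where the nearest was 0.448. The cause of these gaps was not tested.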

How the results depend on the processing

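No paired analysis was possible because the labels give replicate numbers to the vector arrays only. For CFTR against vector, 50 genes passed as deposited. There were 200 after quantile normalization, 173 after median centring, 1 with near copies averaged, 1 against vector replicates 1 to 3, 2393 against replicates 4 to 7, 1002 without the pair of vector replicates 1 and 2, and between 2 and 521 when single arrays were left out. Of the 10 members 2 passed, falling to 1 with the filter on dim genes, which removes SPT14, 1 with the floor, 0 with near copies averaged, 0 against vector replicates 1 to 3, and 0 to 2 leaving out single arrays. Of the 74 other listed genes none passed, but 2 did after quantile normalization, 2 after median centring, 32 against vector replicates 4 to 7, 15 without vector replicates 1 and 2, and 0 to 4 leaving out single arrays.

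Between vector codes 11 to 14 and 3 to 5, 1476 genes passed, or 14 with near copies averaged and 147 to 3866 leaving out single arrays. Of the 10 members 2 passed, both lower. There were 3 after quantile normalization and 3 after median centring, with GPI12 added as higher, 1 with the filter, 0 with near copies averaged and 0 to 8 leaving out single arrays. Of the other 74 genes 23 passed, 14 after median centring, 0 with near copies averaged and 0 to 54 leaving out single arrays. Averaging and leaving out arrays also reduce the samples in the fit, yet leaving out vector replicate 3 raised the count to 3866. The cause of these shifts was not tested. Among the 10 members and 74 other listed genes, no value called as deposited with all arrays changed sign in the alternative fits. Calls in a subset could differ in sign from the value with all vector arrays. In CFTR against vector, GPI15 was called as higher against replicates 4 to 7 alone (0.33), beside -0.19 with all 7. CCW12 was called there as lower (-0.16), beside 0.04 with all 7. Signal over background limits SPT14, which lay under the background limit in all CFTR arrays, and GPI19, under it in all 11.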

Other observations

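Genes of GPI-anchored surface proteins differed among the vector arrays in both directions. In codes 11 to 14 against codes 3 to 5, 6 of 36 rose and 4 fell (limma), beside 6.83% and 20.3% of all genes. The abundant wall proteins SED1 (0.53, SE 0.11), CCW14 (0.49, SE 0.11), CCW12 (0.46, SE 0.12) and CWP2 (0.46, SE 0.12) were higher in codes 11 to 14, as were TIR2 (0.49) and the phospholipase PLB3 (0.49). The aspartyl proteases MKC7 (-1.06, SE 0.19) and YPS6 (-0.79, SE 0.14), the alpha agglutinin SAG1 (-0.96, SE 0.19) and TIR3 (-1.06, SE 0.29) were lower. MKC7 and SAG1 were also among the genes highest in vector replicates 1 and 2. The sizes depend on the scaling. SED1 had 0.19 with quantile normalization and 0.77 with median centring, while CCW14 had 0.26 and 0.74, with both genes past the threshold in each. CWP2 had 0.11 and 0.70 and passed in the first only, and CCW12 had 0.06 and 0.71 and passed in neither. Nor did YPS6 and TIR3 pass in either, while TIR2, PLB3, MKC7 and SAG1 passed in both. With near copies averaged, none of these genes passed.

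Of the genes that supply donors, 6 of 14 were lower in codes 11 to 14 and none was higher, beside 20.3% and 6.83% of all genes. RER2, a cis-prenyltransferase of dolichol synthesis, was lower by the most (-0.85, SE 0.17). The others were DFG10, a polyprenol reductase (-0.60), QRI1, PCM1 and GNA1 of UDP-N-acetylglucosamine synthesis (-0.53, -0.36 and -0.27), and CAX4, a dolichyl pyrophosphate phosphatase (-0.42). After quantile normalization GNA1 and CAX4 did not pass, and after median centring neither did PCM1. CWH43, which exchanges the anchor's lipid for ceramide, was the 1 of 10 remodelling and export genes that was lower (-0.61, SE 0.14). TED1, PER1 and CDC1 had -0.42, -0.22 and -0.13 and did not pass. These calls too were lost with near copies averaged.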
